A study of Mus musculus with 12 samples.

Results

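Cultured 4T1 cells labelled GSH were compared with 4T1 cells labelled WT over every gene with a mean of at least 1 FPKM (read fragments divided by transcript length and by the library's mapped reads) in the 6 libraries of these groups. This rule kept 12283 of the 30803 Ensembl identifiers in their shared table, and the comparison used 3 WT and 3 GSH libraries of the 10 in the series that have a file. The filter has no gap, since the lowest mean inside it was 1.0001 FPKM and the highest outside it was 1.0000 FPKM. 4T1 is a mammary carcinoma line from a BALB/c mouse, and both groups carry the genotype tag alone as their difference, with the same tag for culture as treatment and no time point given. The labels do not expand GSH, name no altered gene and do not say whether replicates are separate cultures or clones, so each p-value is set against a spread among libraries that could be only technical. For the same reason no targeted gene could be read out first. Among 12 labelled samples, the Ctrl and Cas9 groups were not used here.

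In an epithelial tumour cell, most protein synthesis divides between free ribosomes and ribosomes docked on the endoplasmic reticulum. Proteins made in the cytosol are folded by HSP90, HSP70 and the TRiC chaperonin and degraded by the proteasome. Proteins that enter the endoplasmic reticulum are glycosylated, oxidised by disulfide isomerases and folded by a separate set of chaperones before they move to the Golgi, the surface or the lysosome. In the nucleus, SR proteins and the CLK kinases that phosphorylate them set splice site choice, and several of their own messages keep introns that hold them in the nucleus.

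Read totals implied by the steps of the FPKM values were 20297490 to 21954133 in WT and 18531444 to 30168737 in GSH, with GSH 1 the deepest. In WT 8.17 to 8.48% of reads, and in GSH 5.72 to 6.10%, came from the mitochondrial genome. Transcripts known from tissues other than carcinoma cells split the libraries across the groups: 6 exocrine gland genes (Obp1a, Obp2a, Mup4, Mup5, Lcn11, Bpifa1) summed to 245 FPKM in WT 3, 378 in GSH 2 and 147 in GSH 3, against 1.52 in WT 1, 9.05 in WT 2 and 1.17 in GSH 1. None of the 6 was at 0 in all libraries. Bpifa1 did not follow this split, with 4.43 FPKM in WT 2 and 6.43 in GSH 3 against 0.332 in WT 3 and 0.617 in GSH 2. The part of these transcripts in the results was not tested beyond fits by this split of the libraries, given below. Medians of the main gene groups are also given within each set of libraries, as GSH 2 and GSH 3 against WT 3 and as GSH 1 against WT 1 and WT 2. The first principal component, with 44% of the variance, placed WT 1 and WT 2 at -17.3 and -13.3, GSH 2 and GSH 3 at 17.9 and 15.1, and WT 3 and GSH 1 between them at 0.0899 and -2.47.

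Changes are differences of log2(FPKM + 1), GSH minus WT, which understate the change of weakly expressed genes. A gene is called higher or lower where limma's moderated two-sided test gave a Benjamini-Hochberg adjusted p under 0.05 over all 12283 genes. Of these, 37.0% were called, 20.6% higher and 16.4% lower in GSH, and these shares are the background for each count below. Most changes were small: the median absolute log2 change of the 4547 called genes was 0.22, and 45 higher and 120 lower genes passed 0.5. The median SD of a gene between replicates was 0.0537 in WT and 0.0554 in GSH on the same scale. Of the called genes 55.7% were higher. That share was 48.7% with relative log expression scaling, 51.5% with upper quartile scaling and 42.9% where mitochondrial genes were left out of the total, so the balance of directions over all genes follows the scaling.

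**Figure D1:**
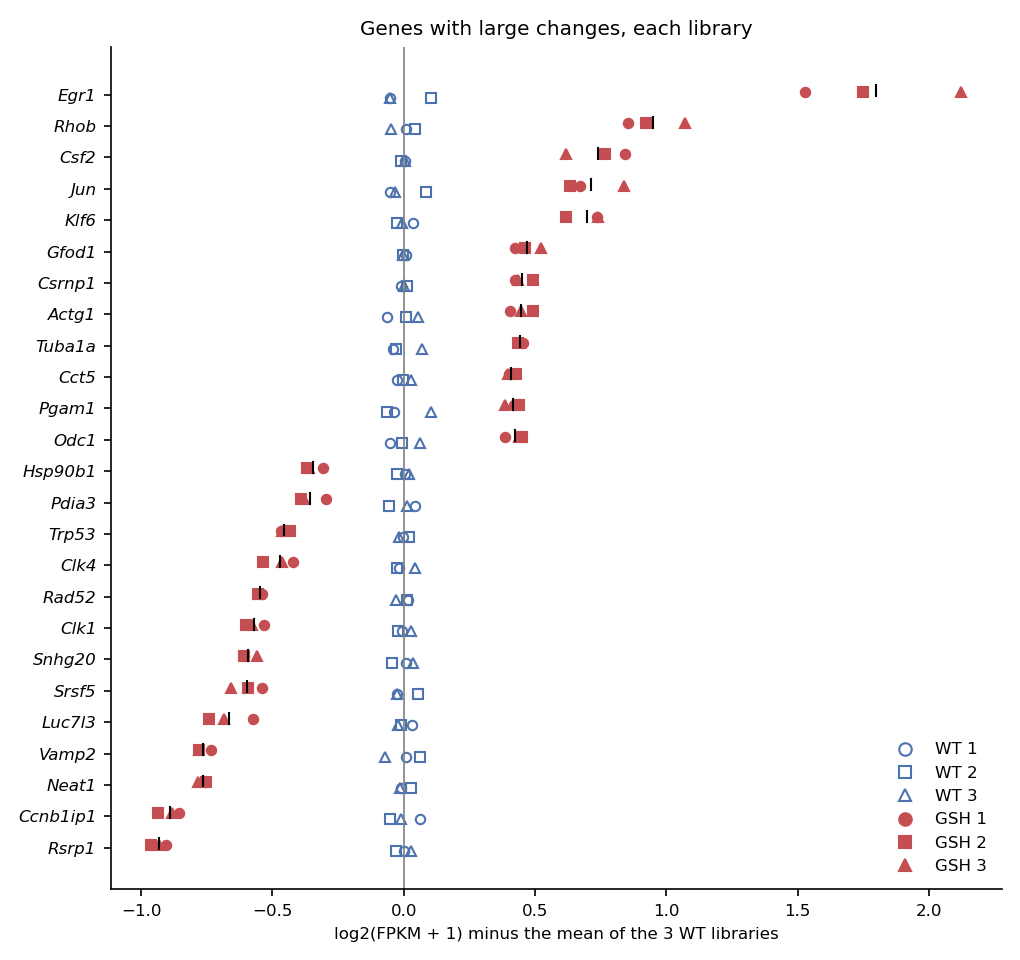
Each library's log2(FPKM + 1) minus the mean of the 3 WT libraries (horizontal axis) for 25 genes named in the text; open blue symbols are WT, filled red symbols GSH, symbol shapes the replicate numbers, and the black tick the GSH mean. For each of these genes all 3 GSH libraries lie on 1 side of all 3 WT libraries, from Egr1 (log2 change 1.80) to Rsrp1 (-0.93). Genes of the mitochondrial genome are not drawn, of which mt-Co3 (-1.18) and mt-Co2 (-1.12) fell further.

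Many regulators of splicing were lower in GSH. Among 26 genes for CLK kinases and SR or SR-like proteins, 15 fell, 1 rose and 10 did not pass, with a median log2 change of -0.21. In these bulk samples fewer cells of a type and less RNA per cell cannot be told apart. The medians within the 2 sets of libraries were -0.22 and -0.18. Rsrp1 (ENSMUSG00000037266), an arginine and serine rich protein gene, read 94.5, 92.4 and 96.2 FPKM in WT 1 to 3 and 49.9, 48.0 and 49.0 FPKM in GSH 1 to 3. The groups lay far apart, and GSH held little more than 50% of the WT level (limma log2 change -0.93, SE 0.03, adjusted p = 0.000182). Luc7l3 (ENSMUSG00000020863), a U1-associated splicing factor, read 42.5, 41.3 and 41.0 FPKM in WT and 27.6, 24.5 and 25.5 FPKM in GSH, a log2 change of -0.67 (SE 0.04). Srsf5, an SR protein, read 153, 162 and 153 FPKM in WT and 107, 103 and 98.6 FPKM in GSH, a log2 change of -0.60 (SE 0.04).

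Clk1 and Clk4, kinases that act on these proteins, followed the same direction. Clk1 (ENSMUSG00000026034) read 23.8, 23.5 and 24.4 FPKM in WT and 16.2, 15.4 and 15.7 FPKM in GSH (limma log2 change -0.57, SE 0.03, adjusted p = 0.00107). Clk4, added after its values were seen, read 27.2, 27.0 and 28.4 FPKM against 20.3, 18.7 and 19.7 FPKM, a log2 change of -0.47 (SE 0.04). All 3 GSH libraries were below all 3 WT libraries for both kinases. Srsf2, the SR protein SC35, fell by 0.30 (SE 0.04) on the log2 scale. The 1 gene of the group that rose was Srsf9 (log2 change 0.23, SE 0.06, limma adjusted p = 0.0263), and its call ended without WT 1 (adjusted p = 0.0505), GSH 1 (0.0728) or GSH 3 (0.0667). Over its alternatives on more than 3 libraries, the adjusted p of Srsf9 ran from 0.00536 to 0.0759.

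In the core of the splicing machine more genes were higher. Of 33 genes for small nuclear ribonucleoprotein and spliceosome core proteins, 20 rose, 1 fell and 12 did not pass, with a median log2 change of 0.18 and medians of 0.13 and 0.18 within the sets of libraries. Sf3b4, a subunit of the U2 particle, read 26.8, 28.1 and 28.3 FPKM in WT and 36.5, 36.3 and 35.8 FPKM in GSH (limma log2 change 0.37, SE 0.03, adjusted p = 0.00162). Snrpb, a ring protein shared by the spliceosomal particles, read 79.7, 81.5 and 83.4 FPKM in WT and 107, 105 and 99.6 FPKM in GSH. Neither gene overlapped between the groups. Prpf8, the large scaffold of the catalytic centre, and Prpf19, a ubiquitin ligase of the spliceosome, had log2 changes of 0.24 and 0.29. The exception was U2af1, which helps to find the 3′ splice site: it read 66.0, 65.5 and 66.4 FPKM in WT and 59.8, 59.8 and 59.7 FPKM in GSH, a log2 change of -0.14 (SE 0.02).

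Genes for hnRNP proteins, which coat nascent RNA, split, with 11 of 28 higher and 7 lower (6 higher without GSH 3). Hnrnph1 fell from 247, 249 and 241 FPKM in WT to 208, 195 and 198 FPKM in GSH (log2 change -0.29, SE 0.03), and Hnrnpdl had a log2 change of -0.28 (SE 0.03). In the other direction, Pcbp1 rose from 75.7, 75.8 and 74.9 FPKM to 92.3, 93.4 and 94.8 FPKM (log2 change 0.31, SE 0.02), and Hnrnpab had a log2 change of 0.25. Nxf1, the export receptor that carries messenger RNA through the nuclear pore, fell from 92.6, 98.5 and 93.9 FPKM to 74.3, 75.4 and 72.7 FPKM (limma log2 change -0.35, SE 0.03, adjusted p = 0.00178). Among the 35 genes of RNA export and the nuclear pore as a whole, 16 rose and 4 fell, with 9 rising without WT 1 and 9 without GSH 3. Pabpn1, the nuclear poly(A)-binding protein, read 15.3, 14.7 and 14.2 FPKM in WT and 12.3, 10.9 and 10.3 FPKM in GSH, a log2 change of -0.37 (SE 0.06).

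Long noncoding RNA as a class was lower in GSH. Of 560 long noncoding genes tested, annotated by GENCODE M21, 170 fell (30.4%) and 28 rose (5.0%), with a median log2 change of -0.15 and medians of -0.13 and -0.16 within the sets of libraries. Without any 1 library, 130 to 145 of them fell, and 16 to 24 rose (18 without WT 1, 18 without WT 3 and 16 without GSH 3). The class took 1.16, 1.16 and 1.13% of reads in WT 1 to 3 and 0.941, 0.925 and 0.941% in GSH 1 to 3. Among its subclasses, 58 of 172 intergenic, 53 of 225 antisense and 39 of 110 processed transcript genes fell. Strand use in counting is not given in the sources used here, so reads of antisense and overlapping genes may belong to their partners. Processed pseudogenes, copies of messages from other loci, went the other way, with 155 of 820 higher and 27 lower (99 higher without WT 1), and reads shared with their parent genes leave their own level uncertain.

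Among 7 tested nuclear long noncoding RNAs of the list, 5 fell, 0 rose and 2 did not pass. Neat1 (ENSMUSG00000092274), the scaffold of paraspeckles, read 86.4, 88.7 and 86.1 FPKM in WT and 51.1, 51.2 and 50.1 FPKM in GSH (limma log2 change -0.77, SE 0.03, adjusted p = 0.000182). Its neighbour Malat1, a speckle RNA, read 164, 174 and 154 FPKM in WT and 145, 139 and 154 FPKM in GSH and did not pass (adjusted p = 0.0603). Firre, an X-linked RNA that anchors chromatin, and Pvt1, which lies next to Myc, had log2 changes of -0.23 and -0.32. Genes that carry small nucleolar RNAs in their introns were also more often lower, with 6 of 12 lower and 1 higher. Gas5 read 185, 188 and 195 FPKM in WT and 151, 152 and 140 FPKM in GSH, and Snhg20 read 25.4, 24.4 and 25.9 FPKM in WT and 16.2, 16.2 and 16.8 FPKM in GSH. Both were apart between the groups, with log2 changes of -0.36 (SE 0.04) and -0.59 (SE 0.03). Snhg10, in none of these lists but among the largest decreases, fell from 5.6, 5.77 and 5.02 FPKM to 2.76, 3.3 and 3.67 FPKM.

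Protein-coding genes fell more often where the annotation lists many of their transcripts as retaining an intron. Of 478 tested genes with 6 or more such transcripts, 141 fell (29.5%) and 62 rose (13.0%), whereas of 3948 genes with none, 572 fell (14.5%) and 903 rose (22.9%). Genes with 1 to 2 such transcripts fell in 15.3% and rose in 23.8% of cases, and genes with 3 to 5 fell in 20.3% and rose in 21.7%. Median abundance also grew along these classes, from 7.41 FPKM with none to 7.98 FPKM with 1 to 2 and 9.9 FPKM with 3 to 5, and was higher again with 6 or more. Without WT 1 or GSH 3, 39 and 41 of the 478 rose, and leaving out any 1 library left 104 to 120 of them lower. By base composition, 435 of the 2054 protein-coding genes of lowest GC content (18.1 to 43.9%) fell and 308 rose, whereas of 2054 genes at 47.9 to 51.8% GC, 276 fell and 555 rose, and of the 2054 of highest GC content 371 fell and 410 rose, so the shares did not follow GC content in 1 direction. The difference between these classes was described and not tested.

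**Figure D2:**
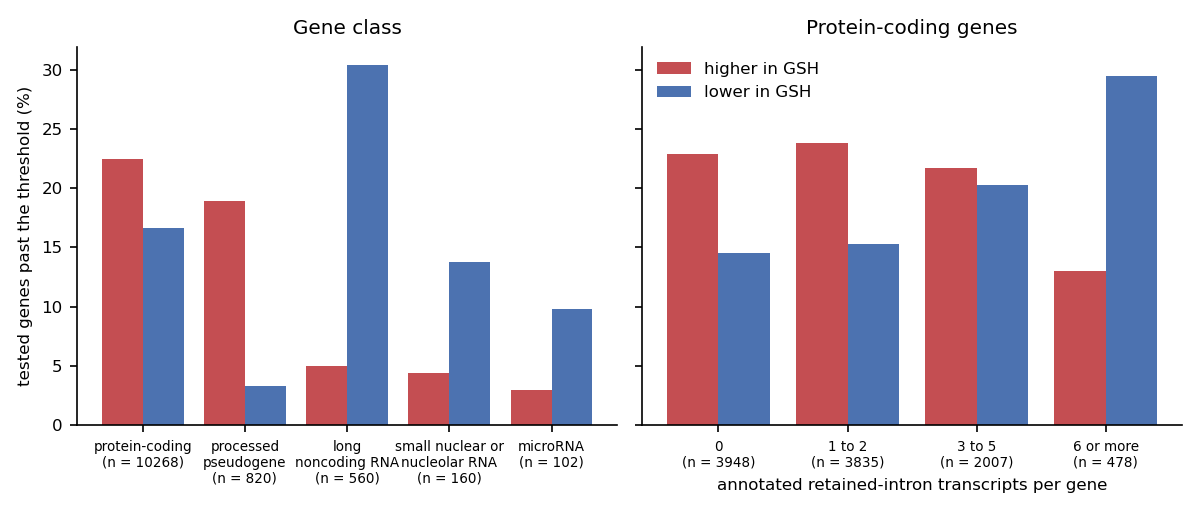
Percentage of tested genes past the threshold (vertical axis), higher (red) and lower (blue) in GSH, by gene class (left) and, for protein-coding genes, by the number of annotated retained-intron transcripts (right), with the number tested under each pair. The blue bar exceeds the red for long noncoding RNA (30.4% against 5.0%) and for genes with 6 or more retained-intron transcripts (29.5% against 13.0%).

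Outside these lists and the mitochondrial genome, large decreases were also found in single genes. Ccnb1ip1, a ubiquitin ligase that binds cyclin B1, read 57.7, 53.1 and 54.8 FPKM in WT and 30.0, 28.4 and 29.5 FPKM in GSH (limma log2 change -0.89, SE 0.04, adjusted p = 0.000621). Vamp2, a SNARE protein of vesicle fusion, read 21.1, 21.9 and 19.9 FPKM in WT and 12.2, 11.8 and 11.8 FPKM in GSH (log2 change -0.77, SE 0.04). For both, GSH libraries differed from each other by less than from any WT library. Msantd2 fell from 33.9, 33.3 and 31.5 FPKM to 22.6, 20.4 and 21.5 FPKM. Tmod4, a tropomodulin that caps actin filaments, and Tm6sf2, a membrane protein of lipoprotein secretion, each fell by 0.63 on the log2 scale (SE 0.07 and 0.09).

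Among genes that make protein in the cytosol, more were higher than lower in GSH. Of 46 large and 32 small subunit ribosomal protein genes 20 and 13 rose, 2 and 1 fell, and 24 and 18 did not pass. Their median log2 changes were 0.08 and 0.07 within WT 3, GSH 2 and GSH 3. Within WT 1, WT 2 and GSH 1 these were 0.27 and 0.28. Without 1 library, 16 to 25 large and 6 to 16 small subunit genes rose. Of 37 translation initiation factor genes, 25 rose, 1 fell and 11 did not pass, with a median log2 change of 0.19 (0.18 and 0.22 within the sets of libraries). Eif3b, a scaffold subunit of eIF3, read 112, 120 and 116 FPKM in WT and 152, 153 and 149 FPKM in GSH (limma log2 change 0.38, SE 0.03, adjusted p = 0.00178). Eif5a, the hypusine-bearing factor that relieves stalled ribosomes, read 431, 432 and 447 FPKM in WT and 557, 566 and 553 FPKM in GSH. The 3 GSH libraries lay above the 3 WT libraries for both. Eif4a2, a helicase paralogue and an snoRNA host itself, was the exception, with 146, 145 and 147 FPKM in WT and 116, 110 and 112 FPKM in GSH (log2 change -0.37, SE 0.03).

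Elongation and release factors rose in 12 of 15 cases, with 0 lower. Eef2, which translocates the ribosome, read 1049, 1111 and 1091 FPKM in WT and 1349, 1481 and 1418 FPKM in GSH, a log2 change of 0.38 (SE 0.05). Eef1a1, which delivers aminoacyl-tRNA and has many processed pseudogenes that could share its reads, read 2499, 2618 and 2721 FPKM in WT and 3387, 3603 and 3491 FPKM in GSH. Its call ended with no filter on low values (limma adjusted p = 0.152). Cytosolic aminoacyl-tRNA synthetase genes rose in 15 of 22 cases, with 0 lower and a median log2 change of 0.19: Wars, Gars and Kars, for tryptophan, glycine and lysine, had log2 changes of 0.32, 0.29 and 0.29. In ribosome assembly, 25 of 46 genes rose and 4 fell, with 16 rising without WT 1. Pes1, a ribosome biogenesis factor of the large subunit, rose from 56.6, 57.2 and 58.2 FPKM to 67.3, 70.3 and 68.7 FPKM, while Nop56, a box C/D snoRNP core protein and snoRNA host, fell from 236, 229 and 227 FPKM to 209, 209 and 202 FPKM.

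Chaperones of the cytosol were mostly higher. Of 14 genes of the TRiC chaperonin and the prefoldin complex that feeds it, 11 rose, 0 fell and 3 did not pass, with a median log2 change of 0.23 (0.18 and 0.29 within the sets). Cct5 (ENSMUSG00000022234), a ring subunit of TRiC, read 194, 197 and 201 FPKM in WT and 261, 266 and 260 FPKM in GSH (limma log2 change 0.41, SE 0.03, adjusted p = 0.00123). Cct7 and Cct3 had log2 changes of 0.34 and 0.29. The HSP90 co-chaperones Fkbp4, an immunophilin, and Cdc37, which loads kinases, read 57.6 to 58.7 and 25.6 to 26.5 FPKM in WT and 75.4 to 76.8 and 32.6 to 33.1 FPKM in GSH. Neither overlapped between the groups.

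Most proteasome genes were higher. Of 19 core particle genes 12 rose and 0 fell, and of 25 regulatory particle genes 20 rose and 0 fell (13 rose without WT 1), with medians of 0.19 and 0.17. Psma6, of the alpha ring, read 86.7, 81.3 and 89.8 FPKM in WT and 111, 107 and 107 FPKM in GSH (log2 change 0.33, SE 0.04). Psmd13 and Psmd2, of the regulatory lid and base, had log2 changes of 0.32 and 0.31 (SE 0.03 and 0.04). Vcp, the ATPase that extracts ubiquitinated proteins, read 46.1, 46.7 and 47.6 FPKM in WT and 58.8, 59.6 and 59.3 FPKM in GSH, and its cofactor Nploc4 had a log2 change of 0.30. Both belong to the list of endoplasmic-reticulum-associated degradation, in which 9 of 25 genes fell and 5 rose. Those counts changed to 5 lower without WT 1 and 4 without GSH 3, and to 3 higher without WT 1, WT 2 or GSH 2. Aup1, a membrane factor of that pathway, fell from 53.3, 53.4 and 50.6 FPKM to 42.4, 42.8 and 41.4 FPKM (limma log2 change -0.31, SE 0.03, adjusted p = 0.00195).

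In the lumen of the endoplasmic reticulum the direction was the opposite. Of 23 tested chaperone genes 13 fell, 0 rose and 10 did not pass, with a median log2 change of -0.13 (-0.14 and -0.13 within the sets). Without WT 1 or without GSH 3, 7 fell. Of 20 disulfide isomerase and oxidase genes 9 fell and 0 rose, also with a median of -0.13. Hspa5 (ENSMUSG00000026864), the lumenal HSP70 BiP, read 710, 697 and 709 FPKM in WT and 610, 601 and 599 FPKM in GSH (limma log2 change -0.23, SE 0.03, adjusted p = 0.00302). Hsp90b1 (ENSMUSG00000020048), the lumenal HSP90, read 275, 269 and 278 FPKM in WT and 221, 212 and 213 FPKM in GSH, a log2 change of -0.35 (SE 0.03). Both stood apart, with GSH libraries lower throughout.

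The ER stress response element, the site bound by ATF6 with NF-Y, was searched because the members of this group fell together. Its letters, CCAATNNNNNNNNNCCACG on either strand, were found in the RefSeq promoters (250 bases before to 50 after a start) of 15 of the 8466 tested genes with a promoter (0.177%). Of those 15 genes, 11 fell, 1 rose and 3 did not pass. Among the 11, 7 belong to the lists whose fall prompted the search, so that count was partly fixed by the choice of element. Of 20 chaperone genes with a promoter 6 held it, and all 6 fell; of 16 isomerase and oxidase genes only Pdia6 held it, which fell as well. Matches for these 7 genes are printed from GRCm38.p6, 5′ to 3′ on the gene's strand with the match in capitals; where the capitals begin with CGTGG the match is on the other strand.
Hspa5 (chr2:34772009-34772059, + strand, 46 bases before the start): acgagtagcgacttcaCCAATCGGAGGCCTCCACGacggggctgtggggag
Hsp90b1 (chr10:86705622-86705672, - strand, 193 bases before the start): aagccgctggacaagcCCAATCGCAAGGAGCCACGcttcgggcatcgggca
Hsp90b1 (chr10:86705517-86705567, - strand, 88 bases before the start): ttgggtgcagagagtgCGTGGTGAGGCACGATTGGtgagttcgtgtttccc
Calr (chr8:84847059-84847109, - strand, 143 bases before the start): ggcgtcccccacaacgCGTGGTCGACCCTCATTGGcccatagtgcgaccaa
Canx (chr11:50325784-50325834, - strand, 126 bases before the start): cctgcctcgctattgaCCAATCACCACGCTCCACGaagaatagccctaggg
Dnajc3 (chr14:118937811-118937861, + strand, 86 bases before the start): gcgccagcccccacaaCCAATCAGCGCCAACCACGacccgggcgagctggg
Creld2 (chr15:88819504-88819554, + strand, 107 bases before the start): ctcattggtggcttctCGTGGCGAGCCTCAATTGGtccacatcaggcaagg
Pdia6 (chr12:17266475-17266525, + strand, 79 bases before the start): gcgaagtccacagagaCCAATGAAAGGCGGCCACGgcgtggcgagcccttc

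A match is a run of letters and was not tested for binding. The genes with a match had modest changes. Calr, the lectin chaperone calreticulin, read 614, 602 and 615 FPKM in WT and 550, 541 and 526 FPKM in GSH (limma log2 change -0.18, SE 0.03, adjusted p = 0.00706, and 0.0619 with no filter). Pdia6, a disulfide isomerase, read 116, 110 and 116 FPKM against 99.0, 101 and 97.7 FPKM (log2 change -0.20, SE 0.03). Canx, the membrane lectin chaperone calnexin, read 289, 276 and 278 FPKM against 267, 245 and 251 FPKM, with adjusted p = 0.0352. All 3 genes were lower in each GSH library than in each WT library.

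The remaining matches were close to the threshold. Dnajc3, a BiP co-chaperone, and Creld2, a lumenal folding factor, had log2 changes of -0.17 and -0.13. The calls of Canx, Dnajc3 and Creld2 depended on single libraries: without WT 1 their limma adjusted p was 0.110, 0.092 and 0.0561, without WT 3 it was 0.0677, 0.0554 and 0.0622, and without GSH 3 it was 0.106, 0.0639 and 0.0507. Canx and Dnajc3 also failed without WT 2 (0.0596 and 0.0558) or GSH 2 (0.0946 and 0.0617). Genes whose promoter held no match fell by as much or more: Dnajb9, a BiP co-chaperone, read 6.49, 5.7 and 6.15 FPKM in WT and 4.66, 4.42 and 4.11 FPKM in GSH (log2 change -0.40), and Pdia3, the isomerase of glycoproteins, read 354, 331 and 347 FPKM against 280, 262 and 264 FPKM (log2 change -0.36). Tmx3, with no promoter in the RefSeq table and a membrane-bound thioredoxin-like isomerase, fell from 18.1, 16.6 and 16.7 FPKM to 13.2, 11.6 and 12.6 FPKM.

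The sensors and factors of the unfolded protein response did not share this direction, with 1 of 10 genes higher, 1 lower and 8 not past the threshold. Their median log2 change of -0.02 was 0.03 within WT 3, GSH 2 and GSH 3. Among 25 tested ATF4 targets 8 rose and 3 fell (1 without GSH 3). Ppp1r15a, which directs dephosphorylation of eIF2 alpha, rose from 4.59, 4.71 and 4.51 FPKM to 6.62, 6.38 and 6.27 FPKM (limma log2 change 0.41, SE 0.04, adjusted p = 0.00178). Nupr1, a stress-induced nuclear protein, moved against it, from 15.6, 15.7 and 17.3 FPKM to 11.1, 12.0 and 12.6 FPKM (log2 change -0.42, SE 0.06).

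Glycan assembly and protein import also held more lower than higher genes. In N-glycan assembly and the oligosaccharyltransferase, 20 of 37 genes fell and 3 rose, with a median of -0.12 (-0.11 and -0.14 within the sets of libraries); 13 fell and 0 rose without WT 1, and 11 fell and 0 rose without GSH 3, while 1 rose without WT 2, WT 3 or GSH 1. Stt3a, the catalytic subunit that transfers the glycan, read 140, 133 and 135 FPKM in WT and 119, 116 and 117 FPKM in GSH (limma log2 change -0.21, SE 0.03, adjusted p = 0.00372). Its partner subunits Krtcap2 and Dad1 had log2 changes of -0.22 and -0.17, whereas Ost4, a further subunit, rose (log2 change 0.22). At the translocon and signal peptidase, 12 of 23 genes fell and 3 rose, of which 1 rose without WT 1, GSH 1 or GSH 2. Sec62, which assists import of small proteins, fell from 65.7, 61.6 and 62.9 FPKM to 54.4, 52.5 and 53.7 FPKM, and Spcs2, of signal peptidase, from 41.2, 38.6 and 41.0 FPKM to 34.1, 33.9 and 33.4 FPKM. The 3 that rose were Srp68 and Srp9, of the cytosolic signal recognition particle, and Sec61b, of the translocon itself (log2 changes of 0.18, 0.20 and 0.18).

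Among vesicle coats and cargo receptors between this compartment and the Golgi, 14 of 39 tested genes rose and 8 fell, the latter 5 without WT 1. Arf1, a cytosolic GTPase that recruits COPI, read 125, 125 and 135 FPKM in WT and 161, 163 and 160 FPKM in GSH (log2 change 0.33, SE 0.04), and the coat subunit Arcn1 had a log2 change of 0.29. The membrane cargo receptors Tmed10 and Kdelr1 fell instead, from 76.1 to 78.0 FPKM in WT to 64.0 to 65.9 FPKM in GSH and from 68.4 to 70.0 FPKM to 58.7 to 60.1 FPKM. The lysosome held 18 lower and 0 higher genes of 42 tested, a median of -0.09, but only 6 fell without WT 1, 10 without WT 3, 11 without GSH 1 and 8 without GSH 3. Asah1, acid ceramidase, read 118, 115 and 119 FPKM in WT and 102, 101 and 101 FPKM in GSH (log2 change -0.21, SE 0.03), and Lamp2, a lysosomal membrane glycoprotein, fell by 0.24. Lamp1, its abundant relative, read 484, 477 and 483 FPKM in WT and 432, 476 and 452 FPKM in GSH and did not pass (adjusted p = 0.143).

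**Figure D3:**
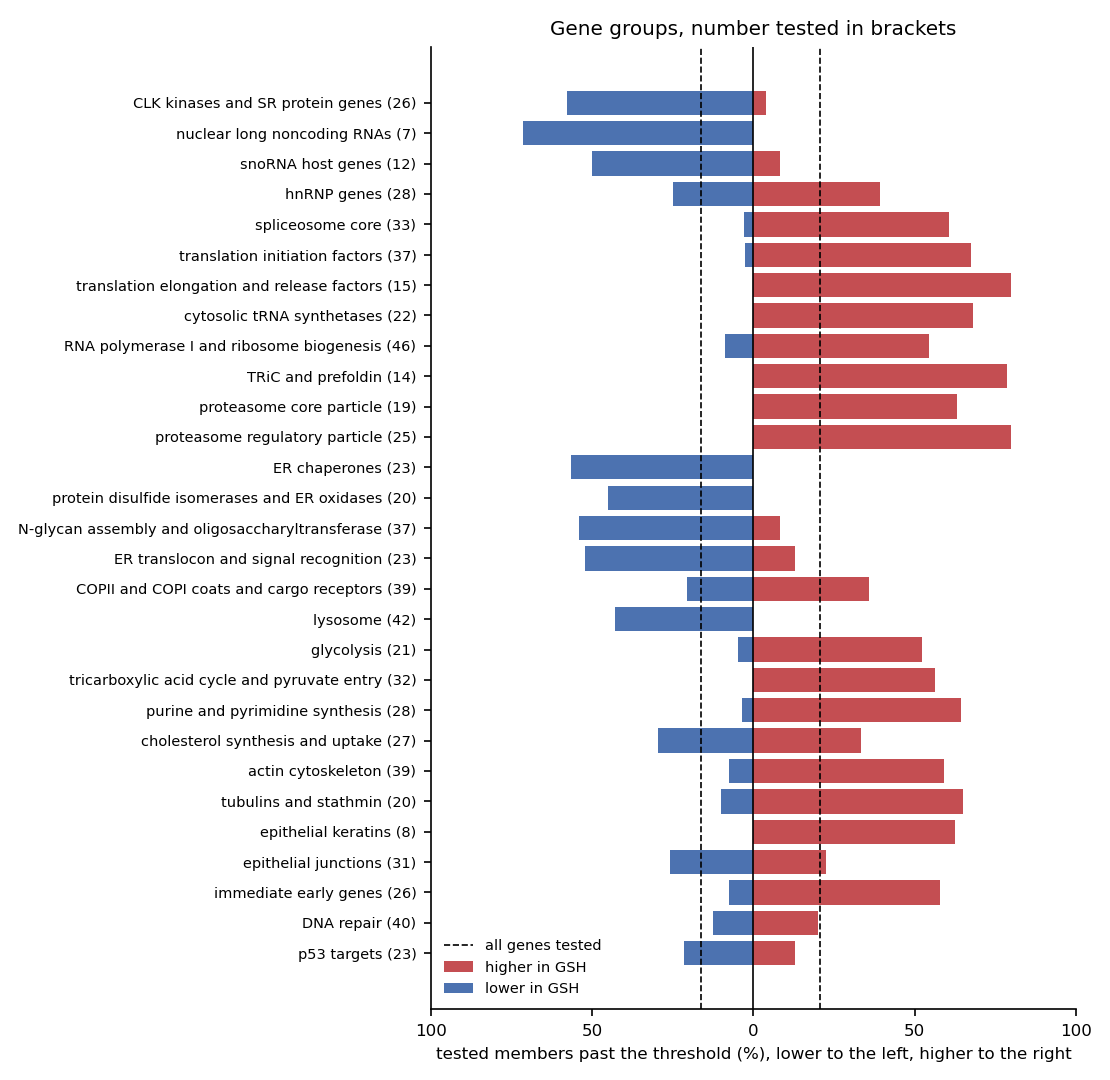
Percentage of tested members past the threshold in 29 gene groups (horizontal axis), lower in GSH to the left in blue and higher to the right in red, with the number tested in brackets; dashed lines are the shares over all genes tested, 16.4% lower and 20.6% higher. Cytosolic synthesis, folding and degradation groups extend mainly to the right. Endoplasmic reticulum chaperone, disulfide isomerase, glycan assembly and translocon groups and the lysosome extend mainly to the left. Nuclear RNA groups are split, with CLK kinase and SR protein genes mainly to the left and spliceosome core genes mainly to the right. The hnRNP genes and the vesicle coats and cargo receptors extend to both sides, with more members higher than lower.

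Transcripts of central carbon metabolism were more often higher than lower in GSH. Of 21 glycolysis genes 11 rose, 1 fell and 9 did not pass, with a median log2 change of 0.24 (0.26 and 0.25 within the sets of libraries). Pgam1, phosphoglycerate mutase, read 157, 154 and 173 FPKM in WT and 216, 219 and 211 FPKM in GSH (limma log2 change 0.42, SE 0.05, adjusted p = 0.00238). Eno1 and Pgk1, the enzymes on either side of it, read 176 to 188 and 327 to 348 FPKM in WT and 228 to 238 and 413 to 428 FPKM in GSH. WT 3 was the highest WT library for all 3 and still lay below each GSH library. Hk2, which commits glucose to the pathway, had a log2 change of 0.32 (SE 0.05). The glucose transporter Slc2a1 did not pass, with 77.5, 79.6 and 78.8 FPKM in WT and 74.9, 78.7 and 77.4 FPKM in GSH. The lactate transporter Slc16a1 was the 1 that fell, with 140, 128 and 133 FPKM against 122, 113 and 122 FPKM (limma adjusted p = 0.0313), and its call ended without WT 1 (0.0909), WT 3 (0.069), GSH 2 (0.0737) or GSH 3 (0.06).

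In the tricarboxylic acid cycle and its pyruvate entry 18 of 32 genes rose and 0 fell, with a median of 0.17. Citrate synthase, Cs, read 54.3, 56.2 and 56.0 FPKM in WT and 65.7, 67.2 and 67.5 FPKM in GSH (log2 change 0.26, SE 0.03). Pdha1, of pyruvate dehydrogenase, and Got2, the mitochondrial aspartate aminotransferase, had log2 changes of 0.32 and 0.28. Of 13 protein genes of the mitochondrial genome 9 fell, 0 rose and 4 did not pass, with a median of -0.46, but with no filter on low values only 1 fell. The largest decreases under the naming rule were here. mt-Co3 read 559, 365 and 357 FPKM in WT and 197, 163 and 195 FPKM in GSH (log2 change -1.18, SE 0.18). mt-Co2 read 4208, 3663 and 2209 FPKM in WT and 1532, 1118 and 1943 FPKM in GSH (log2 change -1.12, SE 0.29). Of 16 tested mitochondrial ribosomal and transfer RNA genes 4 fell and 12 did not pass, among them the small ribosomal RNA: mt-Rnr1 read 652, 583 and 620 FPKM in WT and 429, 387 and 373 FPKM in GSH (log2 change -0.64, SE 0.07). Nucleotide synthesis rose in 18 of 28 genes and fell in 1, with 11 rising without WT 1. Atic, which closes the purine ring, and Umps, which makes uridine monophosphate, had log2 changes of 0.31 and 0.28 (SE 0.03 each). Pfas, an earlier purine enzyme, was the exception, with 28.7, 27.0 and 27.0 FPKM in WT and 24.8, 24.6 and 24.7 FPKM in GSH.

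Serine, folate and methionine genes rose in 12 of 21 cases and fell in 2, with 7 rising without WT 1 and 7 without GSH 3. Ahcy, which clears S-adenosylhomocysteine, read 33.9, 37.5 and 34.8 FPKM in WT and 44.9, 48.7 and 48.4 FPKM in GSH (limma log2 change 0.41, SE 0.05, adjusted p = 0.00254). Mat2a, which makes S-adenosylmethionine and whose message is known for a regulated retained intron, read 92.7, 94.3 and 92.3 FPKM in WT and 76.4, 73.8 and 74.1 FPKM in GSH (log2 change -0.31, SE 0.03). The 2 steps of the same cycle thus differed in sign. Amt, of the glycine cleavage system, was the other gene to fall, from 4.32, 4.53 and 4.27 FPKM to 3.14, 2.56 and 3.34 FPKM. Odc1, ornithine decarboxylase of polyamine synthesis, went up from 94.3, 97.2 and 102 FPKM to 128, 134 and 133 FPKM.

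Lipid genes did not share a direction. In fatty acid metabolism 11 of 33 rose and 6 fell, and in cholesterol synthesis 9 of 27 rose and 8 fell (5 rose without WT 1 and 5 without GSH 3). Plin2, a lipid droplet coat protein, read 67.6, 68.5 and 70.9 FPKM in WT and 87.3, 93.6 and 91.9 FPKM in GSH (limma log2 change 0.39, SE 0.04, adjusted p = 0.00178), and Acly, which makes cytosolic acetyl-CoA, had a log2 change of 0.30. Enzymes of the endoplasmic reticulum membrane were among those that fell. Elovl5, a fatty acid elongase, read 77.1, 77.6 and 75.2 FPKM in WT and 61.9, 59.5 and 63.2 FPKM in GSH, and Msmo1, a sterol demethylase, 65.2, 62.7 and 62.2 FPKM against 52.8, 47.0 and 46.7 FPKM. Srebf2, the transcription factor of sterol synthesis, rose (log2 change 0.24). Of 16 amino acid transporters 4 fell (2 without WT 1, and 7 where mitochondrial genes were left out of the total) and 1 rose: Slc38a2, a neutral amino acid carrier, fell by 0.20 on the log2 scale and Slc7a5, a leucine exchanger, rose by 0.16.

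The genes of glutathione synthesis did not share a direction, with 2 of 14 higher and 3 lower (1 without WT 1). Gclc, the catalytic subunit of the limiting enzyme, read 15.4, 16.3 and 15.9 FPKM in WT and 14.7, 15.3 and 14.7 FPKM in GSH and did not pass (limma adjusted p = 0.0923). The cystine transporter Slc7a11 lay under the filter, at 0.322 ± 0.00978 FPKM in WT and 0.302 ± 0.0454 FPKM in GSH (SD, n = 3 each). Gsr, glutathione reductase, read 24.6, 24.4 and 24.9 FPKM in WT and 30.2, 29.6 and 30.6 FPKM in GSH (log2 change 0.28, SE 0.03). Among 16 tested glutathione peroxidase and ferroptosis genes 4 rose and 3 fell, and among 12 tested glutathione S-transferases 2 rose and 0 fell (5 rose without WT 3, and 1 without WT 1, WT 2, GSH 1 or GSH 3). Other redox groups were mostly higher: 17 of 29 peroxiredoxin, thioredoxin and glutaredoxin genes rose and 0 fell, with a median log2 change of 0.15. Of 32 NRF2 system genes 18 rose and 2 fell, with a median of 0.18. Without 1 library, 12 to 17 and 14 to 18 of them rose.

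The peroxidase genes did not share a direction. Gpx1, the cytosolic enzyme, read 146, 148 and 170 FPKM in WT and 197, 205 and 197 FPKM in GSH (limma log2 change 0.37, SE 0.06, adjusted p = 0.00561). Gpx8, anchored in the endoplasmic reticulum, read 117, 109 and 113 FPKM in WT and 94.0, 87.1 and 81.3 FPKM in GSH (log2 change -0.37, SE 0.06). The groups were apart for both, in opposite directions, and Gpx4, which reduces lipid peroxides, did not pass (log2 change 0.18, limma adjusted p = 0.0514, and 0.019 without WT 3). Pebp1, a RAF-binding protein that also binds lipoxygenase, had a log2 change of 0.39, and Gsta4, which conjugates hydroxynonenal, of 0.27. In iron handling, 5 of 22 genes rose and 4 fell. Tfrc, the transferrin receptor, read 260, 250 and 245 FPKM in WT and 217, 207 and 217 FPKM in GSH (log2 change -0.23), whereas the ferritin chains Fth1 and Ftl1 rose (log2 changes of 0.23 and 0.28). Slc25a37, mitoferrin, fell from 54.1, 54.5 and 51.0 FPKM to 42.8, 42.9 and 43.5 FPKM. Mt1, a metallothionein, read 34.2, 33.8 and 36.3 FPKM in WT and 37.1, 38.9 and 36.9 FPKM in GSH and did not pass (adjusted p = 0.0596).

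Immediate early genes, which growth factors and stress switch on within minutes, were higher in more than 50% of cases. Of 26 tested, 15 rose, 2 fell and 9 did not pass, with a median log2 change of 0.23 (0.29 and 0.23 within the sets of libraries). Egr1 (ENSMUSG00000038418), a zinc-finger factor, read 2.19, 2.55 and 2.19 FPKM in WT and 8.53, 10.1 and 13.4 FPKM in GSH (limma log2 change 1.80, SE 0.14, adjusted p = 0.00162). Rhob, a membrane GTPase, read 32.5, 33.3 and 31.2 FPKM in WT and 59.2, 62.2 and 69.0 FPKM in GSH. The GSH libraries spread more than the WT libraries for both, with GSH 3 the highest, and none reached into the WT range. Jun, Klf6 and Csrnp1, a further transcription factor of this kind, had log2 changes of 0.72, 0.70 and 0.45. Gfod1, an oxidoreductase domain protein outside the list and among the largest increases, read 5.33, 5.28 and 5.28 FPKM in WT and 7.45, 7.68 and 8.04 FPKM in GSH. Klf10 and Nr4a1, a TGF-beta-induced factor and an orphan receptor, went down instead, from 12.6, 12.2 and 12.6 FPKM to 9.86, 9.07 and 9.81 FPKM and from 7.33, 8.47 and 8.13 FPKM to 6.39, 6.62 and 6.8 FPKM.

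The CArG box, the site of serum response factor, was searched in the same promoters because immediate early and actin genes rose together. It was present in 131 of 8466 genes (1.55%), of which 35 rose, 21 fell and 75 did not pass. Among 20 immediate early genes with a promoter it was in Zfp36 and Srf, and among 34 actin cytoskeleton genes in Actg1, Arpc4 and Myl6. The matches of 3 genes that rose are printed from GRCm38.p6, 5′ to 3′ on the gene's strand, with 1 box in capitals per line; Srf holds a pair of boxes in overlapping stretches.
Srf (chr17:46556219-46556260, - strand, 72 bases before the start): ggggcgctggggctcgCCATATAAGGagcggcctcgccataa
Srf (chr17:46556199-46556240, - strand, 52 bases before the start): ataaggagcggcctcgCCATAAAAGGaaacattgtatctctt
Zfp36 (chr7:28379261-28379302, - strand, 48 bases before the start): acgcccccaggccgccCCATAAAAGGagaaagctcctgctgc
Actg1 (chr11:120348560-120348601, - strand, 80 bases before the start): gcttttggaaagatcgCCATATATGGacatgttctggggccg

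Srf, Zfp36, Arpc4 and Myl6 were named for their match, after their values were seen. Srf, the factor itself, read 17.5, 18.2 and 17.6 FPKM in WT and 19.7, 19.8 and 20.6 FPKM in GSH (limma log2 change 0.17, SE 0.03, adjusted p = 0.0089). Zfp36, which destabilises cytokine messages, read 3.64, 4.25 and 3.7 FPKM in WT and 5.23, 5.13 and 5.3 FPKM in GSH (log2 change 0.36, SE 0.05). Arpc4, of the actin-branching complex, rose by 0.24. Myl6, a myosin light chain, read 114, 114 and 115 FPKM in WT and 116, 124 and 118 FPKM in GSH and did not pass (adjusted p = 0.196), so the box was present in a gene that was not called.

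Among ERK feedback genes 4 of 14 rose (2 without WT 1) and 1 fell: Dusp5, a nuclear ERK phosphatase, had a log2 change of 0.44 and Spred3 fell by 0.23. Of 18 tested cytokine and chemokine genes 3 rose and 1 fell. With relative log expression scaling, with mitochondrial genes left out of the total or without GSH 1, 3 rose and 3 fell. Csf2, encoding GM-CSF, read 4.55, 4.5 and 4.55 FPKM in WT and 8.91, 8.4 and 7.49 FPKM in GSH (limma log2 change 0.74, SE 0.06, adjusted p = 0.00161). Lif, an IL-6 family cytokine, and Il1a, interleukin-1 alpha, had log2 changes of 0.27 and 0.21, and Tslp, an epithelial alarmin, fell by 0.22. In the NF-kB list 4 of 15 rose and 2 fell, with Tnfaip3, a feedback inhibitor, 0.14 higher and Birc2, a ubiquitin ligase of the pathway, 0.20 lower on the log2 scale.

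Most cytoskeletal genes tested were higher. Of 39 actin cytoskeleton genes 23 rose, 3 fell (1 without GSH 1 or GSH 2) and 13 did not pass, with a median log2 change of 0.18 (0.17 and 0.18 within the sets of libraries). Actg1 read 421, 442 and 457 FPKM in WT and 582, 619 and 600 FPKM in GSH (limma log2 change 0.45, SE 0.04, adjusted p = 0.00178). Actb read 731, 733 and 745 FPKM against 890, 906 and 928 FPKM, and the filament capping gene Capzb had a log2 change of 0.31. Ezr, which links actin to the membrane, fell from 223, 224 and 215 FPKM to 193, 193 and 194 FPKM. Of 20 tubulin and stathmin genes 13 rose and 2 fell (1 without WT 1 or WT 2); Tuba1a read 43.9, 44.2 and 47.5 FPKM in WT and 62.3, 61.4 and 61.7 FPKM in GSH, and Tubb5 had a log2 change of 0.41. Actins and tubulins have near-identical copies, so reads may be divided between family members and single-gene levels are uncertain to that degree. Tube1, a centriolar tubulin, fell by 0.24.

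The epithelial programme did not move as a unit. Keratins rose in 5 of 8 tested genes, and in 3 without WT 1, WT 2, GSH 2 or GSH 3. Krt8 read 343, 355 and 377 FPKM in WT and 435, 463 and 446 FPKM in GSH (limma log2 change 0.32, SE 0.04, adjusted p = 0.00369), and Krt7 and Krt80 each had a log2 change of 0.28. Of 31 junction genes 7 rose and 8 fell, the latter 5 without GSH 1, GSH 2 or GSH 3. Epcam, the epithelial adhesion molecule, read 365, 346 and 350 FPKM in WT and 290, 285 and 282 FPKM in GSH (log2 change -0.31, SE 0.03). Esrp2, an epithelial splicing regulator, fell from 25.3, 27.2 and 25.6 FPKM to 20.3, 21.1 and 21.9 FPKM. Jup, the intracellular plaque protein plakoglobin, rose instead, with a log2 change of 0.35. Cdh1, E-cadherin, read 230, 220 and 220 FPKM in WT and 203, 207 and 210 FPKM in GSH (limma adjusted p = 0.0318); its call ended without WT 1 (0.0976), WT 2 (0.0547), GSH 1 (0.0826), GSH 2 (0.074) or GSH 3 (0.0704) and with the replicate block (0.0776).

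Of 8 tested mesenchymal genes 1 rose and 1 fell. Vim, vimentin, read 234, 225 and 240 FPKM in WT and 277, 284 and 279 FPKM in GSH, a log2 change of 0.26 (SE 0.03). S100a4, a calcium-binding protein of motile cells, read 13.6, 13.1 and 12.4 FPKM in WT and 9.25, 10.6 and 8.22 FPKM in GSH, a log2 change of -0.44 (SE 0.08). Integrin and focal adhesion genes were split, with 6 of 16 higher and 4 lower (2 without WT 1 or WT 2). Itgb1, the beta-1 chain, fell from 632, 607 and 610 FPKM to 554, 527 and 537 FPKM (limma adjusted p = 0.00757, and 0.0589 with no filter), and Vcl, vinculin on the cytosolic side, rose from 16.5, 17.0 and 16.2 FPKM to 18.6, 20.7 and 20.5 FPKM.

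In the matrix, Col7a1, the collagen of anchoring fibrils, and Spp1, osteopontin, fell from 111, 118 and 107 FPKM to 88.9, 92.8 and 90.4 FPKM and from 380, 379 and 410 FPKM to 308, 332 and 325 FPKM. Thbs1, thrombospondin-1, rose (log2 change 0.22). Of 14 YAP and TEAD targets 7 rose and 2 fell, among them the secreted protein gene Ccn2, with 198, 195 and 190 FPKM in WT and 225, 244 and 236 FPKM in GSH (log2 change 0.27, SE 0.04). The coactivator Wwtr1 had a log2 change of 0.32. Ajuba, a LIM protein of that pathway, fell by 0.19.

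Of 22 MHC class I presentation genes 11 fell and 1 rose, with 7 lower without any 1 library. Of 18 interferon-stimulated genes 4 fell and 1 rose. H2-K1, a class I heavy chain, read 92.3, 89.7 and 89.3 FPKM in WT and 69.7, 80.2 and 76.9 FPKM in GSH (limma log2 change -0.26, SE 0.05, adjusted p = 0.0115); class I heavy chains share reads with related genes. Irf1, a transcription factor of that pathway, read 9.3, 9.73 and 9.54 FPKM in WT and 7.42, 7.08 and 6.43 FPKM in GSH (log2 change -0.40, SE 0.05), and Irf9 fell by 0.30. Cd47, which inhibits phagocytosis, read 35.2, 30.6 and 32.0 FPKM in WT and 28.5, 24.4 and 26.0 FPKM in GSH (limma adjusted p = 0.0178), a call that ended without WT 1 (0.0502) or GSH 3 (0.0563). Cd276, a B7 family ligand, rose from 25.4, 25.1 and 25.6 FPKM to 27.9, 28.3 and 28.1 FPKM.

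Among genes of the damage response, Trp53 (ENSMUSG00000059552) read 35.2, 35.7 and 34.8 FPKM in WT and 25.2, 25.8 and 25.3 FPKM in GSH (limma log2 change -0.46, SE 0.03, adjusted p = 0.00112). The spread within each group was small beside the difference. Of 23 tested p53 targets 3 rose and 5 fell (1 rose without WT 2 or GSH 1; 0 rose and 3 fell without GSH 3; 9 fell where mitochondrial genes were left out of the total), with a median of 0.00. Perp, a desmosomal p53 target, fell by 0.19. Mdm2, the ligase of p53, fell by 0.16 (limma adjusted p = 0.0178), a call that ended without WT 1 (0.0563), GSH 2 (0.0515) or GSH 3 (0.0615). In DNA repair 8 of 40 genes rose and 5 fell. Rad52, a recombination mediator, read 4.13, 4.11 and 3.97 FPKM in WT and 2.49, 2.45 and 2.46 FPKM in GSH, a log2 change of -0.55 (SE 0.04).

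Other members of the repair list moved up. H2afx, the histone marked at breaks, rose from 23.6, 24.6 and 24.0 FPKM to 34.2, 31.4 and 32.2 FPKM, and Ddb1, an adaptor of a cullin ligase, from 143, 149 and 153 FPKM to 188, 193 and 194 FPKM. Rad54l, a recombination motor, fell by 0.31. In the G1/S list 19 of 48 genes rose and 4 fell (12 rose without GSH 3), with Mcm2, of the replicative helicase, 0.35 higher and Ccne2, cyclin E2, 0.29 lower on the log2 scale. Hypoxia-linked genes were split, with 6 of 21 higher and 6 lower (5 and 8 with relative log expression scaling, 4 and 8 where mitochondrial genes were left out of the total): Car9, a carbonic anhydrase, fell from 12.0, 10.9 and 11.8 FPKM to 9.14, 9.24 and 9.86 FPKM, and Bnip3l, a mitophagy receptor, rose from 9.36, 9.22 and 9.73 FPKM to 12.0, 11.9 and 11.5 FPKM.

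**Figure D4:**
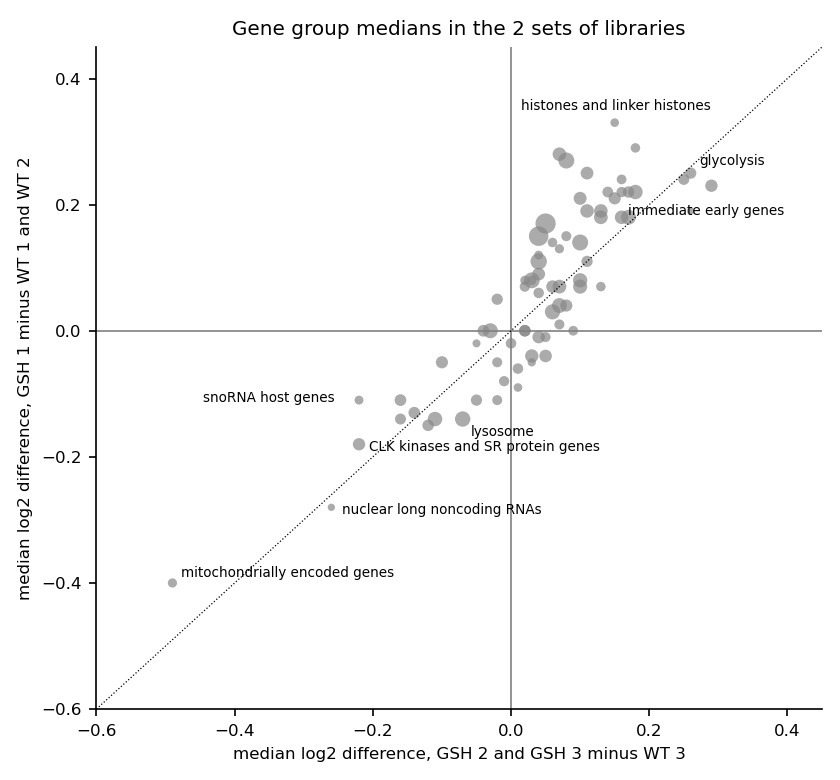
Median log2 difference of 75 gene groups with at least 5 tested members in GSH 2 and GSH 3 against WT 3 (horizontal axis) and in GSH 1 against WT 1 and WT 2 (vertical axis); point area grows with the number of genes, and the dotted line marks equal values. Groups named as markers and the exocrine gland group (0.29 and -0.30 in the same order) were left out of the 75. The medians had the same sign in both sets for 61 groups, and mitochondrially encoded genes (-0.49 and -0.40) lie lowest, while immediate early genes (0.29 and 0.23) and histones (0.15 and 0.33) are among the highest.

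The markers of carcinoma epithelium were abundant in every library. The 7 epithelial marker genes summed to 1542 to 1613 FPKM in WT and 1604 to 1662 FPKM in GSH. Ptprc, the leukocyte antigen CD45, was at most 0.0407 FPKM, and the endothelial markers summed to 0.222 to 0.438 FPKM. The 8 leukocyte markers summed to 2.21 to 3.2 FPKM in WT and 2.41 to 8.52 FPKM in GSH, where GSH 3 held 6.44 FPKM of Lyz2. The 5 fibroblast and pericyte markers summed to 2.58 to 3.88 FPKM in WT and 3.57 to 5.18 FPKM in GSH, of which Pdgfra held 2.05 to 2.29 FPKM in every library. Red cell genes summed to 4.77 to 31.8 FPKM in WT and 18.1 to 51.2 FPKM in GSH, and none of their 4 tested list members was called.

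**Figure D5:**
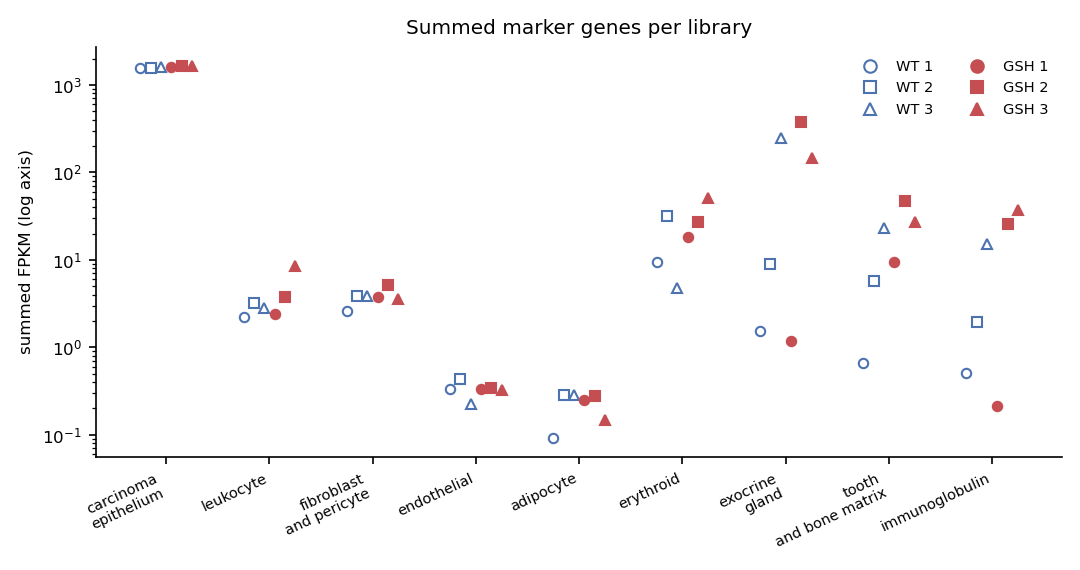
Summed FPKM of marker genes for 9 cell or tissue types in each library (log axis); open blue symbols are WT, filled red symbols GSH, symbol shapes the replicate numbers. The sum of epithelial markers is level across libraries, although Krt8 and Krt18 were higher and Epcam, Cdh1 and Cldn7 lower in GSH. Sums of exocrine gland, tooth and bone matrix and immunoglobulin genes, the latter 2 types chosen after their values were seen, are highest in WT 3, GSH 2 and GSH 3.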

How the data were processed

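RNA of cultured 4T1 cells was sequenced, per the labels' protocols, from Trizol extracts with a NEBNext kit. The deposited values are FPKM per Ensembl identifier as the authors computed them; HTSeq 0.6.0, HISAT2 2, Bowtie2 2.2.3 and genome build mm8 are named, without roles, per the submitters' processing notes. The unit was inferred from the values: 98.7 to 98.8% of values in each library were whole multiples of 1 read's worth within 0.15 read.

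The main test was limma 3.58.1 in R 4.3.3 on log2(FPKM + 1), with a mean variance trend and group as the only term, over genes with a mean of at least 1 FPKM. Gene classes, lengths and GC content came from GENCODE M21 and promoters from RefSeq. The named genes were the 15 largest increases and decreases with non-overlapping groups, the first 3 genes of each of 82 lists, the 3 genes of smallest p in each direction per list, and the 10 largest changes above a mean of 500 FPKM. Members and lists were chosen with earlier results of these data known. Alternatives covered the pseudocount, filter, scaling, trend, replicate block, voom on recovered reads, each library left out, and the sets of libraries. The script was tested on simulated data.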

Additional observations from a re-analysis of the deposited data

How the results depend on the processing

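Of 12283 genes, 4547 differed between GSH and WT, and 5881 had an unadjusted p under 0.05. Leaving out 1 library in turn gave 3004 to 3668 genes by limma, 3004 without WT 1 and 3120 without GSH 3, where the same spread is estimated from fewer samples. No filter gave 3086 of 30803, a minimum of 5 FPKM gave 3831 of 7457, and voom on recovered reads gave 5068 of 11938. Within WT 3, GSH 2 and GSH 3 limma called 0 genes (3435 at an unadjusted p under 0.05), and within WT 1, WT 2 and GSH 1 it called 4 (3794), each with 1 library alone in its group, assumed to vary like the others. With all 6 libraries and a term for WT 3, GSH 2 and GSH 3, 3659 genes were called, 3553 of them among the 4547, and the calls of Canx, Dnajc3, Cdh1, Slc16a1 and Srsf9 ended (limma adjusted p of 0.0599, 0.0614, 0.0615, 0.068 and 0.0556). Leaving mitochondrial genes out of the total changed small counts: lower ATF4 targets went from 3 to 5 and lower serine and folate genes from 2 to 4, while higher genes of endoplasmic-reticulum-associated degradation went from 5 to 3 and those of the translocon and of N-glycan assembly from 3 to 1 each.

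With the replicate number as a block 3867 genes were called, 3645 of them among the 4547. The labels do not say that the numbers pair the samples. Deviations of same-numbered libraries correlated at 0.479, -0.107 and 0.209, while WT 3 with GSH 2 gave 0.393. WT 1 correlated best with its own number, and WT 3 did not. These correlations cannot decide whether the samples are paired, because the deviations within a group of 3 depend on each other. The FPKM values limit weakly expressed genes most: of 2054 protein-coding genes at 1.0 to 3.07 FPKM, 6.77% were higher and 7.94% lower, against 37.0% and 22.8% of the 2054 most abundant.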

Other observations

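Gene families grouped by symbol differed in how often they fell. Among 258 tested Zfp genes, zinc-finger proteins, 70 fell and 19 rose, and among 149 Tmem genes, transmembrane proteins, 42 fell and 8 rose. Of 179 Slc genes, membrane carriers of solutes, 45 fell and 17 rose. In the opposite direction, 18 of 51 Rab genes, small GTPases of vesicle traffic, rose and 2 fell, and 10 of 28 Kif genes, kinesin motors, rose and 0 fell. Over all genes 20.6% rose and 16.4% fell, and these families were described without a test.

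Other elements were searched in the same promoters. The heat shock element (GAANNTTCNNGAA or TTCNNGAANNTTC) was in 0.602% of 8466 promoters and in 3 of 26 cytosolic HSP90 and HSP70 genes, of which 1 rose and 2 did not pass. Of all 51 genes with this match, 12 rose, 9 fell and 30 did not pass. It was in 0 of 12 TRiC and prefoldin genes with a promoter. The antioxidant response element (TGACNNNGC, either strand) was in 17% of promoters and in 11 of 26 NRF2 system genes, of which 6 rose and 1 fell. It was in 5 of 26 peroxiredoxin, thioredoxin and glutaredoxin genes (19.2%), of which 4 rose and 0 fell. Among all 1438 genes with this match, 340 rose and 239 fell.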
